A study of Caenorhabditis elegans with 6 samples.

Results

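The genes described here encode the sensors of endoplasmic reticulum (ER) stress and a set of the enzymes that fold and clear proteins in that compartment. They were taken by name from the deposited gene table of Caenorhabditis elegans and are xbp-1, ire-1, pek-1, atf-6, crt-1, cnx-1, pdi-1, pdi-2, pdi-3 and sel-1, 10 of 45519 listed genes. All 10 were expressed above the mean of 1 FPKM needed for testing. FPKM counts sequenced fragments per kilobase of a gene, scaled by the authors with 1 factor per library. RNA was taken from whole larvae of the wild-type strain N2 and of the strain linc-133(aqz 3), which carries an allele of a long intervening noncoding RNA gene, with 3 libraries of each. Eggs of both strains hatched and stayed in M9 buffer for 3 days at 20 °C, so that all larvae of the study were in first-stage (L1) arrest. There is 1 mutant allele, and what it removes from linc-133 is not stated in the labels. Nor do they state that replicates are separate cultures, so the spread behind each p-value may be purely technical.

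Recovered reads per library ranged from 16108063 to 18556695. For linc-133 itself the wild-type libraries held 9, 6 and 5 reads and those of the mutant 6, 2 and 2, too few to check the genotype. Protein-coding genes whose mean reached 10 FPKM were split by length into 4 bins of equal size. In mutant replicate 3 the bin of longest genes (2279 bases and more) had a median of 0.25 on the log2 scale relative to each gene's mean over all libraries, against -0.18 and -0.14 in mutant replicates 1 and 2. For the bin of shortest genes (937 bases and less) the medians were -0.22, 0.13 and 0.18 in the same order, and in the wild-type libraries every bin lay between -0.04 and 0.04. Of 8 lists of tissue and stage markers, the summed levels of the strains overlapped in every list, and the list of adult yolk and sperm protein genes summed to 0.386 to 1.55 FPKM, with 1 of its 5 genes at 0 throughout. The neuron list, for example, summed to 963 to 1146 FPKM in wild type and 941 to 1106 FPKM in the mutant. The intestine list, of which 4 of 5 genes were found, summed to 1223 to 1307 and 951 to 1440 FPKM in the same order. Wild-type replicate 1 stood apart in the epidermis list, with a sum of 340 FPKM against 127 and 99.9 FPKM in the other wild-type libraries. The most abundant gene of that list, grd-10, alone had a wild-type mean of 94.0 ± 101.5 FPKM (SD, n = 3). The mutant sums of that list ran from 173 to 297 FPKM. Wild-type replicate 1 was also the highest wild-type library in the germline list (167 against 107 and 123 FPKM) and the embryo list (221 against 124 and 150 FPKM). It was not in the intestine, body wall muscle, pharynx, neuron or adult lists.

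Proteins that enter the ER are folded by chaperones and by enzymes that form and rearrange disulfide bonds. When unfolded protein builds up, sensors in the ER membrane start the unfolded protein response. IRE-1 cuts the mRNA of xbp-1 so that its spliced form encodes an active transcription factor, PEK-1 slows translation by phosphorylating the initiation factor eIF2alpha, and ATF-6 is a membrane-bound transcription factor. In worms the loss of IRE-1 or XBP-1 together with one of the other branches stops larval growth. Folding is carried out by calreticulin (CRT-1), calnexin (CNX-1) and the protein disulfide isomerases, while SEL-1 belongs to the ubiquitin ligase complex that sends misfolded proteins back to the cytosol for degradation. Since the table gives 1 value per gene, spliced and unspliced xbp-1 mRNA cannot be told apart in it.

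In the arrested larvae the folding enzymes and xbp-1 stood at higher levels than the 3 sensors and sel-1. In wild type the mean levels, from high to low, ran crt-1, xbp-1, pdi-3, pdi-2, pdi-1, cnx-1, pek-1, ire-1, atf-6 and sel-1, from 1116 FPKM for crt-1 to 11.8 FPKM for sel-1. Neighbours in that order had separate ranges, except xbp-1 with pdi-3 and ire-1 with atf-6, whose libraries overlapped. The mutant showed the same order, with pdi-1 and cnx-1 as a further overlapping pair. Over all 6 libraries crt-1 ranked 98 and xbp-1 186 among 13868 tested protein-coding genes, whereas pek-1 ranked 2427, ire-1 4615, atf-6 4951 and sel-1 7498. Of the 10 genes, sel-1 alone was below the median of those genes. The 10 genes together took 0.473% ± 0.0214 of the recovered reads in wild type and 0.494% ± 0.09995 in the mutant (SD, n = 3 each).

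None of the 10 genes passed the comparison of the strains. In limma's test with Benjamini-Hochberg adjustment over all 16794 tested genes, 0 members had an adjusted p under 0.05, where the share over all tested genes was 0.0%, and the lowest adjusted p was 0.368, for atf-6. At an unadjusted p under 0.05 there were also 0 members, against 13.7% of all tested genes (7.22% higher and 6.48% lower in the mutant), and voom on the recovered reads gave 0 members past its adjusted threshold. The log2 change was above 0 in 5 members and below 0 in 5, with a median of -0.01, and the median over all tested genes was 0.00 (-0.0015). All mutant libraries lay on one side of all wild-type libraries in 3 members, 1 higher (cnx-1) and 2 lower (ire-1 and atf-6) in the mutant, against 20.0% of all tested genes (10.5% higher and 9.54% lower). This count was 4, 4 and 3 without wild-type replicate 1, 2 or 3, where 33.2%, 25.1% and 25.9% of all tested genes separated. It was 6, 4 and 3 without mutant replicate 1, 2 or 3, where 35.4%, 27.2% and 35.7% did, and the 6 add pek-1 on the higher side and pdi-1 and pdi-3 on the lower side. In whole larvae, fewer cells that express a gene and less RNA per cell cannot be told apart.

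**Figure D1:**
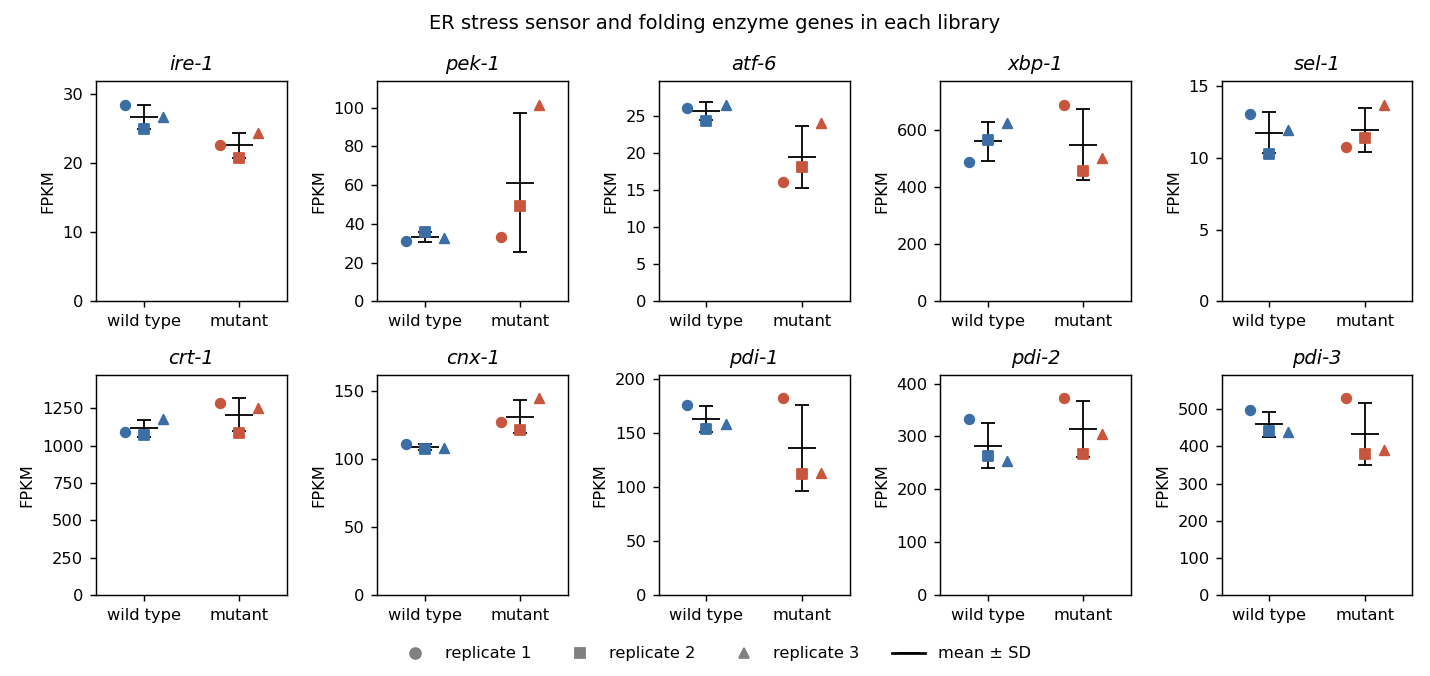
FPKM of each of the 10 genes in wild-type and mutant libraries (circle, square and triangle for replicates 1, 2 and 3; the bar is the mean with SD, n = 3), each panel with its own axis from 0. The mutant libraries lie above the wild-type libraries for cnx-1 and below them for ire-1 and atf-6, and pek-1 in mutant replicate 3 reaches 102 FPKM.

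Of the sensors, ire-1 (gene 174305, chromosome II, 8112243 to 8126876, minus strand, WBcel235) stood at 28.4, 24.9 and 26.7 FPKM in wild type (here and below in the order of replicates 1, 2 and 3) and at 22.6, 20.7 and 24.3 FPKM in the mutant. All mutant libraries were below all wild-type libraries, by a narrow gap between 24.3 and 24.9 FPKM. The log2 change of ire-1 was -0.23 ± 0.12 (SE, limma's adjusted p = 0.450; exact permutation p = 0.1, the smallest that 3 libraries against 3 allow), and its 95% interval ran from 0.695-fold to 1.04-fold. In the Ensembl annotation the opposite-strand gene unc-105 shares 4 exonic bases with ire-1, 0.118% of those of ire-1.

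atf-6 (gene 181405, chromosome X, 12480948 to 12484912, plus strand) measured 26.05, 24.2 and 26.5 FPKM in wild type and 16.04, 18.1 and 24.05 FPKM in the mutant. Mutant replicate 3 was just under the lowest wild-type library, while mutant replicates 1 and 2 were well below it. The log2 change was -0.40 ± 0.17 (SE, limma's adjusted p = 0.368; exact permutation p = 0.1), with a 95% interval from 0.574-fold to 1.001-fold. It rested on 706 to 1197 reads per library.

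pek-1 (gene 181334, chromosome X, 11410176 to 11414887, minus strand) was even in wild type, at 30.98, 35.97 and 32.9 FPKM, and uneven in the mutant, at 33.2, 49.2 and 101.6 FPKM. Mutant replicate 1 was within the wild-type range, and mutant replicate 3 was 3.06 times as high as mutant replicate 1. The log2 change was 0.71 ± 0.38 (SE, limma's adjusted p = 0.452; exact permutation p = 0.2). It was 0.28 without mutant replicate 3, 1.07 without mutant replicate 1, and 0.76 after a smooth trend on gene length had been removed from each library. pek-1 is the longest of the 10 genes at 3709 bases. Body wall muscle markers, 5 of 5 detected and none at 0, summed to 3237 to 3555 FPKM in wild type and to 2543, 3041 and 4436 FPKM in mutant replicates 1, 2 and 3. Their part in the pek-1 values was not tested.

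xbp-1 (gene 175541, chromosome III, 4193809 to 4195358, plus strand), the transcription factor gene downstream of IRE-1, measured 489, 566 and 623 FPKM in wild type and 688, 455 and 503 FPKM in the mutant. Mutant replicate 1 was the highest and mutant replicate 2 the lowest of all 6 libraries, so that the mutant range enclosed the wild-type range. The log2 change of xbp-1 was -0.04 ± 0.19 (SE, limma's adjusted p = 0.940; exact permutation p = 1.0), with a 95% interval from 0.709-fold to 1.33-fold for the total of its spliced and unspliced forms.

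Among the folding genes, crt-1, which encodes the calcium-binding lectin chaperone calreticulin (gene 178997, chromosome V, 6098731 to 6100542, minus strand), measured 1094, 1074 and 1181 FPKM in wild type and 1286, 1083 and 1252 FPKM in the mutant. Mutant replicate 2 lay inside the wild-type range and the other mutant libraries were above it. The log2 change was 0.11 ± 0.12 (SE, limma's adjusted p = 0.731), with a 95% interval from 0.886-fold to 1.32-fold. It was 0.19 without mutant replicate 2 and 0.062 without mutant replicate 1. The opposite-strand gene smut-1, at 10.996 and 11.48 FPKM in wild type and mutant, shares 92 exonic bases with crt-1, 6.57% of those of crt-1, and the library kit does not mark strand.

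cnx-1, which encodes the membrane-bound lectin chaperone calnexin (gene 176390, chromosome III, 9814268 to 9817137, minus strand), measured 110.8, 107.03 and 107.6 FPKM in wild type, the tightest group among the 10 genes. Its mutant libraries measured 126.7, 121.5 and 144.3 FPKM, each above every wild-type library. The log2 change was 0.26 ± 0.12 (SE, limma's adjusted p = 0.410; exact permutation p = 0.1), with a 95% interval from 0.982-fold to 1.47-fold. The opposite-strand gene ZK632.14 shares 49 exonic bases with cnx-1, 2.29% of those of cnx-1.

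The log2 changes of the protein disulfide isomerase genes lay on both sides of 0, and each 95% interval included 0. pdi-1 (gene 175472, chromosome III, 3699739 to 3701461, minus strand) measured 176.6, 154.0 and 158.7 FPKM in wild type and 182.4, 112.4 and 113.7 FPKM in the mutant. pdi-2 (gene 180724, chromosome X, 4523733 to 4532847, plus strand), whose product is also the beta subunit of the prolyl 4-hydroxylases that modify collagen, measured 332, 263 and 254 FPKM in wild type and 372, 267 and 305 FPKM in the mutant. pdi-3 (gene 172433, chromosome I, 7015912 to 7020790, minus strand) measured 498, 442 and 439 FPKM in wild type and 529, 380 and 391 FPKM in the mutant. In each of these genes mutant replicate 1 was the highest of the 6 libraries, and wild-type replicate 1 was the highest wild-type library. Mutant replicates 2 and 3 were below all wild-type libraries for pdi-1 and pdi-3, but not for pdi-2. The same-strand gene C07A12.19 shares 18 exonic bases with pdi-2, 0.948% of those of pdi-2.

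The log2 changes were -0.29 ± 0.21 for pdi-1, 0.15 ± 0.18 for pdi-2 and -0.10 ± 0.16 for pdi-3 (SE, limma's adjusted p = 0.596, 0.755 and 0.833 in that order). The 95% interval of pdi-1 ran from 0.574-fold to 1.16-fold, that of pdi-2 from 0.827-fold to 1.49-fold and that of pdi-3 from 0.712-fold to 1.22-fold. All 3 values depended on single libraries. That of pdi-1 was -0.52 without mutant replicate 1 and -0.18 without mutant replicate 2 or 3. For pdi-2, leaving out mutant replicate 1 or 2 gave 0.022 or 0.26, and leaving out wild-type replicate 1 or 3 gave 0.27 or 0.077. For pdi-3, leaving out mutant replicate 1, 2 or 3 gave -0.25, -0.013 or -0.034, and leaving out wild-type replicate 1 gave -0.041.

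sel-1 (gene 179720, chromosome V, 12559772 to 12563462, plus strand), the scarcest of the 10 genes, measured 13.1, 10.3 and 11.98 FPKM in wild type and 10.8, 11.4 and 13.7 FPKM in the mutant. The groups overlapped throughout, and the log2 change was 0.02 ± 0.15 (SE, limma's adjusted p = 0.968), with a 95% interval from 0.785-fold to 1.31-fold.

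**Figure D2:**
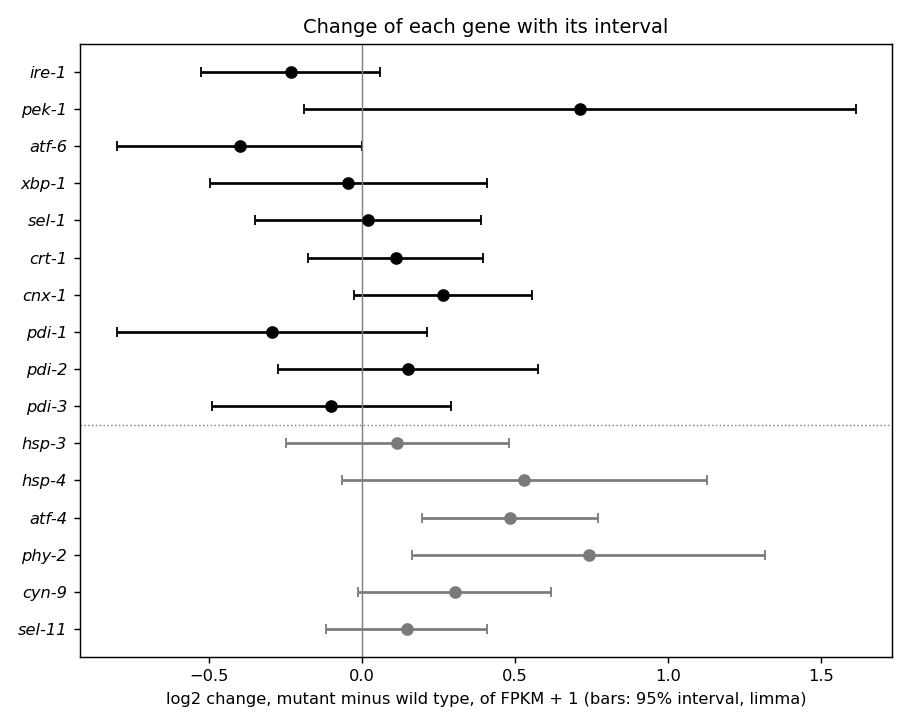
Log2 change of FPKM + 1, mutant minus wild type, for the 10 genes (black, above the dotted line) and for 6 partner genes (grey), with 95% intervals from limma. Each of the 10 intervals spans 0 and the interval of pek-1 is the widest, whereas those of atf-4 and phy-2 lie above 0 before adjustment for the number of genes.

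The mutant libraries differed more among themselves than the wild-type libraries did. The SD of log2(FPKM + 1) was larger in the mutant for 10 of 10 members, as it was for 72.97% of the 8398 tested genes whose mean reached 10 FPKM. The highest mutant library was replicate 1 for 5 members (xbp-1, crt-1, pdi-1, pdi-2 and pdi-3) and replicate 3 for the other 5 (pek-1, ire-1, atf-6, cnx-1 and sel-1). The first 5 have gene lengths of 1446 to 2336 bases and the other 5 of 2141 to 3709 bases, so that the split between these libraries nearly followed length. Mutant replicate 2 was highest for 0 members. Its medians for the bins of shortest and longest genes were 0.18 and -0.14, beside 0.13 and -0.18 in mutant replicate 1. The part of length in this split was not tested. After the length trend had been removed from each library, 0 members passed limma's adjusted threshold and each log2 change kept its sign, from -0.39 for atf-6 to 0.76 for pek-1.

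**Figure D3:**
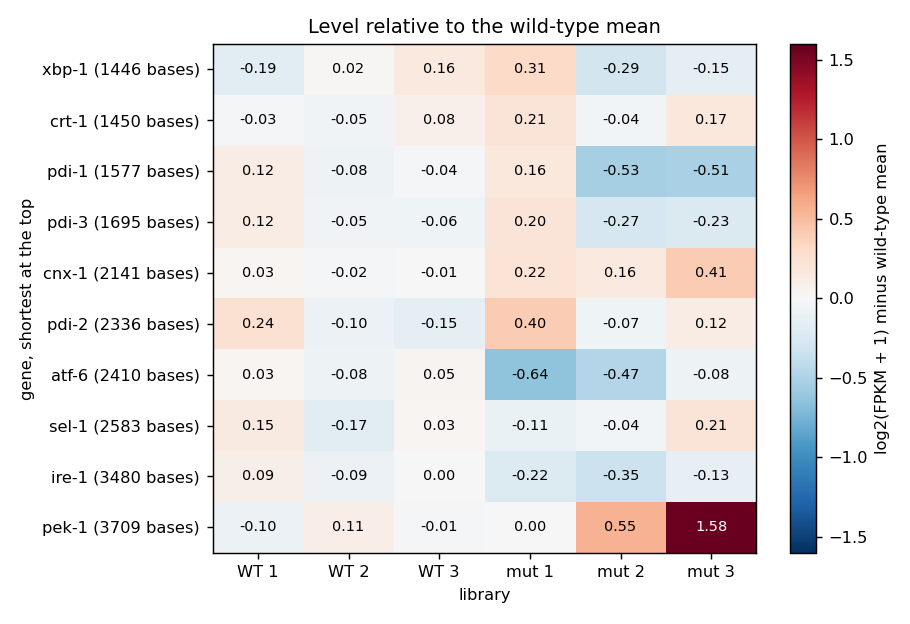
Level of each gene in each library as log2(FPKM + 1) minus the wild-type mean, with the shortest gene at the top. Mutant replicate 1 is above 0 for the 6 shortest genes, at 0.16 to 0.40, and mutant replicate 3 is highest for pek-1, the longest, at 1.58.

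Ratios of 2 genes within a library do not depend on how the libraries were scaled. For the 45 pairs among the 10 genes, the log2 ratios of the strains did not overlap in 13, against 21.6% of all pairs of tested genes with a read in every library, though pairs share genes, and each of the 13 had the smallest exact permutation p of 0.1 (0.346 after Benjamini-Hochberg adjustment over 45 pairs). The ratio of pdi-1 to pdi-2 was 0.531, 0.586 and 0.625 in wild type and 0.490, 0.421 and 0.373 in the mutant. Relative to pdi-3, pdi-1 was lower and pdi-2 higher in every mutant library than in any wild-type library. Relative to cnx-1, ire-1 had a mean log2 ratio of -2.03 ± 0.0708 in wild type and -2.53 ± 0.0443 in the mutant (SD, n = 3 each), and atf-6 of -2.09 ± 0.0606 and -2.77 ± 0.200. These ratios had to separate, since the mutant libraries already lay above wild type for cnx-1 and below it for ire-1 and atf-6. They add nothing to the separations of the single genes. Of the 45, the ratio of pek-1 to atf-6 had the largest difference of means, with mean log2 ratios of 0.38 ± 0.170 in wild type and 1.52 ± 0.519 in the mutant.

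pdi-1 stands 98 bases upstream of cyn-9, a cyclophilin gene on the same strand with which it forms an operon, a pair of genes transcribed together. cyn-9 measured 7.77, 6.77 and 6.83 FPKM in wild type and 9.31, 9.06 and 8.68 FPKM in the mutant, each mutant library above every wild-type library. The ratio of pdi-1 to cyn-9 was 22.7, 22.8 and 23.2 in wild type and 19.6, 12.4 and 13.1 in the mutant (exact permutation p = 0.1, 0.467 after adjustment over the 7 ratios of a member to a partner gene that were computed). Among those 7 ratios it was the only one without overlap between the strains. The ratio of pdi-2 to phy-2, an alpha subunit gene of prolyl 4-hydroxylase, was 10.5, 14.9 and 14.3 in wild type and 11.4, 7.03 and 7.68 in the mutant, with overlap through replicate 1 of each strain (exact permutation p = 0.2, 0.467 after adjustment).

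**Figure D4:**
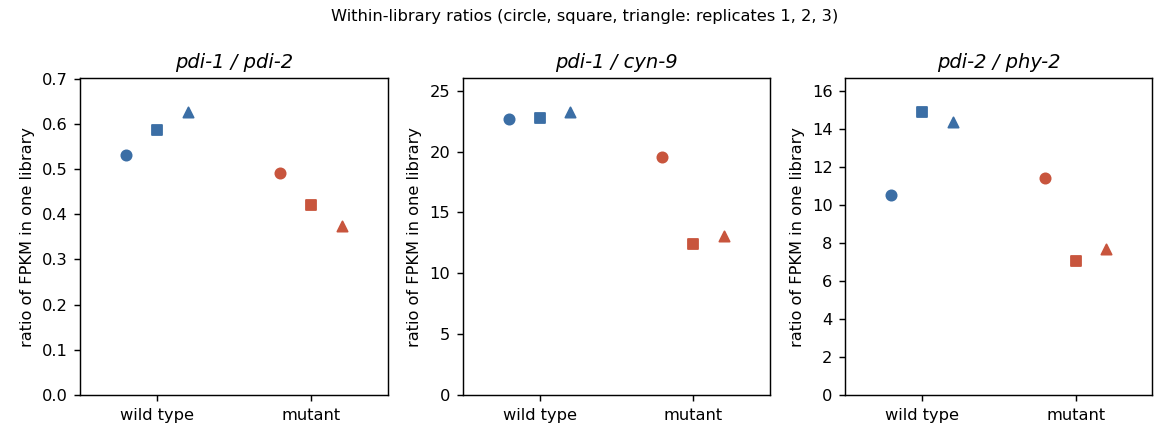
Ratio of FPKM between 2 genes in the same library, for pdi-1 to pdi-2, pdi-1 to cyn-9 and pdi-2 to phy-2, with each axis from 0 and the symbols for replicates 1, 2 and 3. The mutant libraries lie below the wild-type libraries in the first 2 panels, at 19.6 or less against 22.7 or more for pdi-1 to cyn-9, and overlap them in the last.

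The other genes of the compartment were read in 7 lists of partner genes. Of 77 names of partner genes, 72 were found and 66 were tested, and 0 passed limma's adjusted threshold (lowest adjusted p = 0.198) or voom's. The names edem-1, edem-2, edem-3, R151.6 and atf-5 were not found, and their genes may be listed under other names. Unadjusted p-values under 0.05 were found for 3 of these 66, 2 higher (atf-4 and phy-2) and 1 lower (abu-10) in the mutant, a smaller share than the 13.7% of all tested genes. Their libraries did not overlap between the strains in 8 of the 66, 4 higher and 4 lower, against 20.0% of all tested genes (10.5% higher and 9.54% lower), and the median log2 change was 0.04.

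Of the ER chaperone genes, 0 of 9 had an unadjusted p under 0.05, against 13.7% of all tested genes, and the median log2 change was 0.01. hsp-4, the BiP gene whose induction by ER stress in worms depends on IRE-1 and XBP-1, measured 81.4, 92.02 and 93.9 FPKM in wild type and 162.5, 86.7 and 151.59 FPKM in the mutant. Mutant replicates 1 and 3 were well above the wild-type range and mutant replicate 2 was inside it (log2 change 0.53, limma's adjusted p = 0.413). The other BiP gene, hsp-3, had wild-type and mutant means of 257 ± 15.4 and 281 ± 42.7 FPKM (SD, n = 3 each). The J-domain genes dnj-27 and dnj-20 measured 25.96 ± 2.84 and 141 ± 10.05 FPKM in wild type and 22.3 ± 7.67 and 128 ± 17.4 FPKM in the mutant. Of 6 other thiol-disulfide enzyme genes none had an unadjusted p under 0.05, against the same 13.7% of all tested genes (median log2 change 0.06). The lowest p-values in that list belonged to Y49E10.4, with 5.57 ± 1.78 and 7.40 ± 1.63 FPKM, the sulfhydryl oxidase gene F35G2.1, with 57.4 ± 4.78 and 67.1 ± 9.73 FPKM, and the thioredoxin domain gene ZK973.11, with 26.2 ± 4.63 and 28.1 ± 2.40 FPKM (the wild-type mean first).

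Among genes tied to the sensors, 14 names gave 9 tested genes, with a median log2 change of -0.26. At an unadjusted p under 0.05, 1 was higher and 1 lower in the mutant, against 7.22% and 6.48% of all tested genes. atf-4, a transcription factor gene whose mRNA is translated when eIF2alpha is phosphorylated, measured 98.5, 103.01 and 92.8 FPKM in wild type and 127, 142 and 144 FPKM in the mutant. All mutant libraries were above all wild-type libraries, with a log2 change of 0.48 ± 0.12 (SE, limma's adjusted p = 0.198). abu-10, named as activated when the unfolded protein response is blocked, measured 16.9, 43.7 and 33.4 FPKM in wild type and 16.2, 11.7 and 18.5 FPKM in the mutant, with wild-type replicate 1 among the mutant values. Its relative abu-11 measured 12.2, 35.1 and 22.3 FPKM and 16.98, 6.89 and 12.3 FPKM in the same order. The abu genes are similar to each other, so their own levels are uncertain.

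In the list of ER-associated degradation, 19 names gave 14 tested genes, and the median log2 change was -0.11. Of the 14, 0 had an unadjusted p under 0.05, against 13.7% of all tested genes. edem-1, edem-2 and edem-3 were not found under these names and npl-4.2 was under 1 FPKM, so these counts do not include them. The libraries did not overlap for 5 of these 14, 1 higher and 4 lower, against 10.5% and 9.54% of all tested genes, and of the 5 genes sel-11, ubc-6 and ufd-1 are named because of it, after their values were seen. The gene sel-11, the ubiquitin ligase partner of SEL-1, was higher in the mutant at 28.7 ± 1.09 and 31.9 ± 1.36 FPKM. The derlin gene der-2 was lower at 14.2 ± 1.36 and 11.3 ± 1.46 FPKM, as were the ubiquitin-conjugating enzyme gene ubc-6 at 33.7 ± 1.58 and 30.1 ± 2.11 FPKM, and ufd-1 at 53.5 ± 2.41 and 46.3 ± 5.15 FPKM (again with the wild-type mean first). Also lower was cdc-48.3, at 17.2 ± 1.68 and 13.4 ± 1.78 FPKM in the same order. Whether cdc-48.3 acts in this degradation was not examined. cdc-48.1, which encodes a segregase ATPase that draws substrates from the membrane, measured 56.0 ± 4.47 and 46.8 ± 5.28 FPKM with overlapping libraries. None of these had limma's adjusted p under 0.376.

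Of 10 tested genes of collagen modification, phy-2 had the lowest p. It measured 31.6, 17.7 and 17.7 FPKM in wild type and 32.5, 38.02 and 39.7 FPKM in the mutant, where wild-type replicate 1 came close to mutant replicate 1 (log2 change 0.74, limma's adjusted p = 0.269). The peptidyl-prolyl isomerase gene fkb-3 had wild-type and mutant means of 25.3 ± 5.91 and 34.006 ± 5.71 FPKM. For pdi-2, phy-2 and fkb-3, wild-type replicate 1 was the highest wild-type library, as it was for the summed epidermis markers. This was not particular to collagen modification or to epidermis. The same library was the highest for pdi-1, pdi-3, ire-1, cnx-1, sel-1 and each gene of the N-glycan transfer and translocation list. It was not for xbp-1, crt-1, pek-1, atf-6, emb-9 or let-2. The summed germline and embryo markers were also highest in it. The part of these markers in the values was not tested. The N-glycan transfer and translocation list had log2 changes above 0 in 13 of 15 genes, against 8366 of 16794 tested genes, with a median of 0.14. The strains' libraries separated in 0 of the 15, against 20.0% of all tested genes. The lowest p-values of this list belonged to the translocon gene sec-61.B, with 64.1 ± 21.9 and 89.1 ± 17.2 FPKM, trap-3, with 83.03 ± 18.3 and 106 ± 16.96 FPKM, and dad-1, a subunit gene of the oligosaccharyltransferase, with 120 ± 12.9 and 153 ± 31.2 FPKM. The ER calcium genes were each highest in mutant replicate 3. The ryanodine receptor gene unc-68 measured 14.8, 17.7 and 50.8 FPKM in mutant replicates 1, 2 and 3 against 33.2 ± 1.79 FPKM in wild type, the inositol trisphosphate receptor gene itr-1 10.5, 17.7 and 35.9 FPKM against 23.1 ± 2.24 FPKM, and the calcium pump gene sca-1 282, 334 and 557 FPKM against 386 ± 21.3 FPKM. The body wall muscle markers (2543, 3041 and 4436 FPKM in sum) and the bin of longest genes (medians of -0.18, -0.14 and 0.25) had the same order over mutant replicates 1, 2 and 3, and their part in the calcium gene values was not tested.

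**Figure D5:**
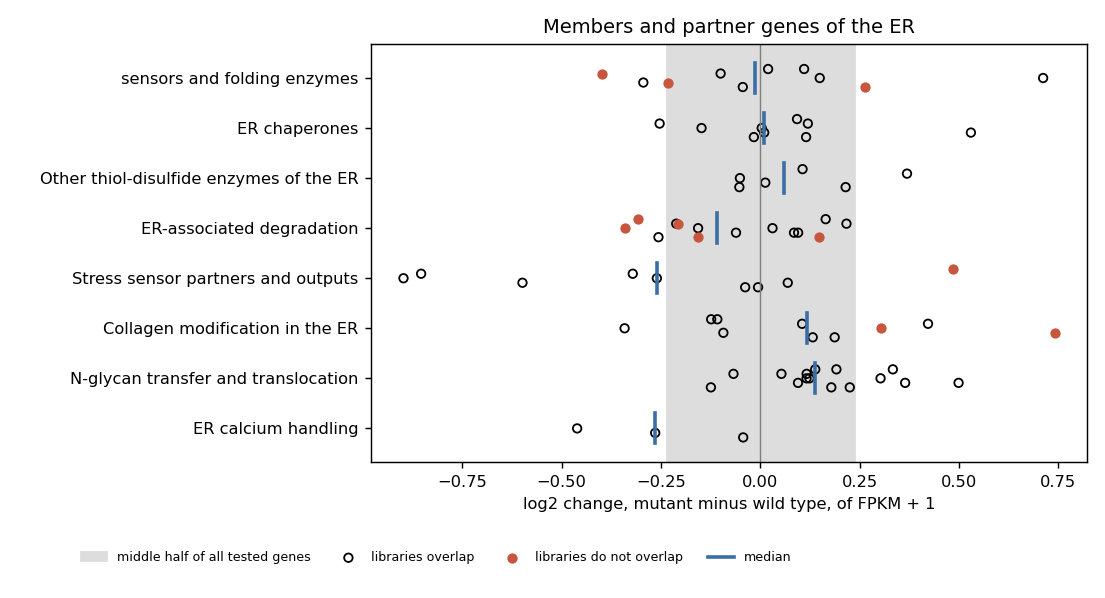
Log2 change of FPKM + 1, mutant minus wild type, for the sensors and folding enzymes and for the tested genes of the 7 partner lists, with filled points where the libraries of the strains do not overlap and a bar at each list's median. The grey band is the interquartile range of all tested genes, from -0.23 to 0.24, and describes single genes, not list medians. Each median lies inside it except those of the sensor partners (-0.26) and the calcium genes (-0.26), lists of 9 and 3 tested genes. The sensor partners include the similar genes abu-8 (-0.60), abu-10 (-0.90) and abu-11 (-0.85), whose own levels are uncertain.

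The genes most like xbp-1 and crt-1 over the 6 libraries were sought among 8095 protein-coding genes whose mean reached 10 FPKM, as a description in which library scaling is shared. For xbp-1 these were R02F2.7 (Pearson's r = 0.979), C18A3.3, annotated as a probable rRNA-processing protein (r = 0.975), and T20G5.9 (r = 0.9498). For crt-1 they were the bestrophin homolog gene best-19 (r = 0.976), wdr-46 (r = 0.973) and Y23H5B.5 (r = 0.941). None of the other 9 members was among the 3 genes closest to xbp-1 or to crt-1.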

How the data were processed

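The authors deposited FPKM per gene, per the file headers, in 1 table with gene length and position. StringTie, Bowtie 0.12.2 and STAR 2.5.2b are listed without roles in the submitters' processing notes, with the build WBcel235. Whether counting used strand, and the annotation release, were not given in the sources used here. Per the labels' protocols, libraries were made from 1 µg of total RNA with a TruSeq RNA kit. FPKM times gene length was a whole multiple of 1 step per library, the worth of 1 read, for 100% of 131954 values above 0 (within 0.01 of a read), which gave the recovered reads. The library size that this step implies differed most from the recovered reads in mutant replicates 1 and 3. It was 20597631 against 18440824 reads in mutant replicate 1, and 15596450 against 17322012 in mutant replicate 3.

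The 16794 genes whose mean reached 1 FPKM were tested on log2(FPKM + 1) by limma (version 3.58.1, R version 4.3.3) with trend and robust moderation, the strain as the only term and Benjamini-Hochberg adjustment (threshold 0.05). Fold changes on this scale understate the change of low genes. Single values used 2-sided exact permutation tests in scipy 1.17.1. The fit was tested on simulated data. Exon overlaps came from Ensembl release 115. marc-6, whose symbol is a number in the table, was matched by gene identifier.

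The members and lists were chosen with earlier results of these data known. Named partner genes are hsp-3, hsp-4 and the 3 with the lowest p of each list. sel-11, ubc-6 and ufd-1 were named after their values were seen. Of the marker lists, the most abundant members were asp-3, grd-10, pat-10, tnc-2, snb-1, cey-2, pos-1 and vit-3. Alternatives were other pseudocounts, filters and scalings, voom on the recovered reads, a replicate block, protein-coding genes alone, each library left out and a length correction.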

Additional observations from a re-analysis of the deposited data

How the results depend on the processing

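Each of the 10 genes was recomputed under 18 alternatives. Of these 180 values, 0 passed the adjusted threshold (lowest adjusted p = 0.148) and 175 kept their sign. The others were near 0: leaving out 1 library gave -0.22 to 0.080 for xbp-1, above 0 without wild-type replicate 3 (0.037), mutant replicate 2 (0.080) or mutant replicate 3 (0.0074), and -0.076 to 0.092 for sel-1, below 0 without wild-type replicate 2 (-0.067) or mutant replicate 3 (-0.076). pek-1 ranged from 0.28 to 1.07 and pdi-1 from -0.52 to -0.18. Members without overlap numbered 3 to 6 when 1 library was left out. They were 6 without mutant replicate 1, with pek-1, pdi-1 and pdi-3 added, where 35.4% of all tested genes do not overlap. Over all genes, the count of 0 became 23 when limma's trend and robust options were both off, 3 with voom, 349 in voom with quality weights and 1 among protein-coding genes, and 0 members and 0 partner genes were among them. The cause was not tested. With the replicate block the counts of genes and members called were 0 and 0 and the member median stayed at -0.01. Whether libraries with the same number are paired is not known. Deviations of same-numbered libraries correlated at 0.0129, -0.102 and 0.00946, and those of unlike numbers at -0.0673 to 0.0901. Such small values cannot settle the pairing. The length correction was chosen after seeing the data and gave a median of -0.02. The members had 474 to 38419 reads per library.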
